A study of Homo sapiens with 20 samples.

Results

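The genes described here encode the proteins of the cytosolic ribosome. They are the protein-coding genes of the deposited expression table whose names are RPL or RPS with a number and at most one letter suffix of A, X, Y1, Y2 or L, together with RPLP0, RPLP1, RPLP2 and RPSA. This rule uses names only, and the S6 kinases were left out. It found 83 genes among 58870 rows, 19986 of them protein-coding: 34 of the small subunit and 49 of the large subunit. RNA-seq was performed in 12 samples of A375 and 1205Lu, established human melanoma cell lines. Each line received either non-targeting siRNAs (si-NT) or siRNAs that silence FRA1 (si-FRA1, named si-FOSL1 in the titles after the gene that encodes FRA1), with 3 samples in each of the 4 groups. FRA1 is a subunit of the transcription factor AP-1. A further 8 samples came from Cut&Run, which maps where a protein sits on DNA, with 3 FRA1 antibody samples and 1 IgG control in each line. All 4 RNA-seq groups received siRNA, so no untreated cells enter any comparison. The number of siRNAs and the time after transfection are not given in the sources used here, and nothing states that samples of a group came from separate cultures, so p-values measure the spread between these samples, which may be technical.

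Assigned counts per RNA-seq sample ranged from 20573412 to 32518903. FOSL1 was 413, 424 and 408 CPM (counts scaled by library size, with TMM factors over all 12 samples) in the A375 si-NT samples and 25.7, 25.7 and 26 CPM in the A375 si-FRA1 samples. In 1205Lu it was 492, 484 and 478 CPM in the si-NT samples and 69.4, 70.9 and 65.1 CPM after silencing. The siRNA target was thus lower in each silenced sample of both lines. Of 7 melanocyte lineage markers, SOX10 had a mean of 44 CPM in A375 si-NT and 914 CPM in 1205Lu si-NT, and MITF 52.2 and 3.55 CPM. The pigment genes PMEL, MLANA, TYR and DCT stayed at or below 1.38 CPM in every sample of both lines, and S100B was at 0.992 CPM in A375 si-NT against 427 CPM in 1205Lu si-NT. Of the markers of other cell types, KRT5, KRT14, PTPRC and CD3E stayed below 1 CPM, and of the 3 fibroblast genes DCN and LUM were at most 1.48 and 1.92 CPM. COL1A1 was at 11.1 CPM in A375 si-NT and 21.8 CPM in A375 si-FRA1, and at 1.67 and 2.2 CPM in 1205Lu.

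Each ribosome holds 1 copy of most of these proteins, so cells make them in matched amounts, and their mRNAs are among the most abundant of a dividing cell. The small subunit reads the mRNA, and the large subunit joins the amino acids. Most of these mRNAs start with a 5′ terminal oligopyrimidine (TOP) tract, a C followed by a run of C or T, through which LARP1 and the kinase mTORC1 control their translation and stability.

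The start regions of 66 of the 83 genes were present in the RefSeq promoter table (GRCh38.p14), which gives 250 bases before and 50 bases after each start. A run of at least 5 pyrimidines that began with a C within 5 bases of the start was found in 54 of these 66 genes (81.8%). Among all 14896 protein-coding genes in that table, 4206 had such a run (28.2%). The following starts belong to genes whose changes are described below, and each shows 27 bases from 12 before the listed start, 5′ to 3′, with the pyrimidine run in capitals.
RPS18: gtcacttccgCTCTCTCTTCCacagga
RPS21: gactagctgCTTCCTTTCTCTCTCgcg
RPL31: atccttcgcgCTCTTCCTTTCCaactt
RPL11: aagctccgCTTTCTCTTCCTgctctcc
RPLP0: cgggcgcgaggCCCTTCTCTCgccagg
RPL27A: gcgaaggCCTTCCTTTTTCgtctgggc
RPS19: aaccccgtcgttCCCTTTCCCCTggct
RPL28: cccctcgCCTTCCTCTTTCCgtctcag
RPS26: acacataaCCTCgattttcttccgcca
RPS27L: ttgatgcCgagcgcagatcgcttgcag

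These windows lie on GRCh38 for RPS18 at chr6:33272063-33272089 (+), RPS21 at chr20:62387091-62387117 (+), RPL31 at chr2:101002277-101002303 (+), RPL11 at chr1:23691794-23691820 (+), RPLP0 at chr12:120201097-120201123 (-), and for RPL27A at chr11:8682780-8682806 (+), RPS19 at chr19:41860243-41860269 (+), RPL28 at chr19:55385920-55385946 (+), RPS26 at chr12:56041906-56041932 (+), RPS27L at chr15:63157463-63157489 (-). RPL28, which fell in A375, carried a run of 13 bases, and RPS21, which rose, one of 15. RPS26, which was not called in either line, had 4 bases at the listed start, and RPS27L had 1. Among the 53 genes with the run that were tested, the median log2 fold change with silencing was 0.26 in A375 and -0.11 in 1205Lu. Among the 10 tested genes without it the medians were 0.20 and -0.04. Of these, RPL9, RPS15 and RPS26 had a C or T run that began further after the listed start than the 5 bases allowed. The group without the run therefore depends on the listed starts, and the starts that the cells used were not tested. The AP-1 letters TGACTCA or TGAGTCA, which are each other's reverse complement, occurred in the 300-base window of 1 of the 66 genes (1.52%, RPL24), against 5.36% of all promoters. CACGTG, its own reverse complement, occurred in 4 genes (6.06%, against 11%), and CCGGAAG on either strand in 23 (34.8%, against 16.8%).

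The 83 genes together took 5.20% of the assigned counts in each of the A375 si-NT samples (5.203, 5.207 and 5.201%). In the A375 si-FRA1 samples they took 6.10, 6.09 and 6.10%. The means were 5.20 ± 0.00333% and 6.10 ± 0.00243% (SD, n = 3), a ratio of 1.17. In 1205Lu the share was 2.85, 2.85 and 2.84% with si-NT and 2.77, 2.76 and 2.80% with si-FRA1, with means of 2.85 ± 0.0046% and 2.78 ± 0.0188% (SD, n = 3) and a ratio of 0.974. The groups did not overlap in either line, with the silenced samples above the controls in A375 and below them in 1205Lu. Counts are relative to the library, so RNA per cell was not measured. The exact two-sided permutation test gave p = 0.1 in each line, the smallest value that 3 against 3 samples allow. The A375 si-NT share was 1.83 times that of 1205Lu si-NT. Beside these shares, the genes of the mitochondrial chromosome took 10.3 to 10.5% of counts in A375 si-NT and 10.2 to 10.3% in A375 si-FRA1. In 1205Lu they took 9.85 to 10.0% with si-NT and 8.85 to 8.95% with si-FRA1. Over nuclear protein-coding counts only, the ribosomal protein share went from 6.31 to 7.59% in A375 and went from 3.54 to 3.41% in 1205Lu.

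**Figure D1:**
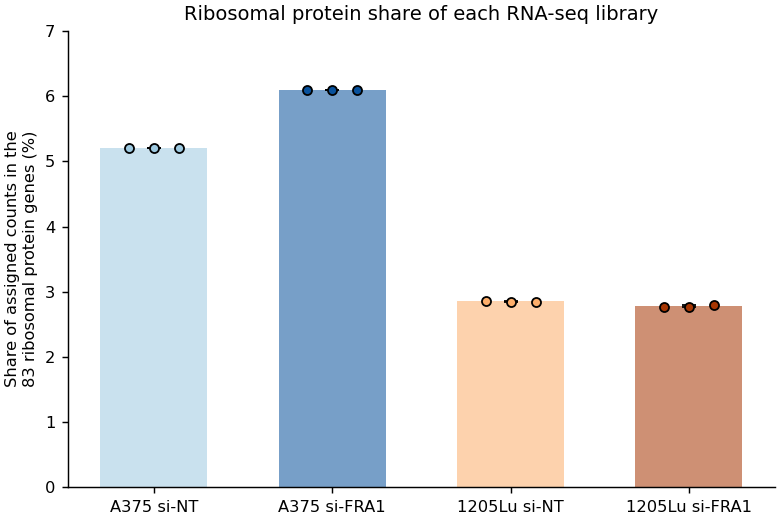
Share of assigned RNA-seq counts (%, y axis) in the 83 ribosomal protein genes for the 4 groups; points are samples, bars the mean of 3 and whiskers the SD. The A375 si-FRA1 samples lie at 6.09 to 6.10% against 5.20 to 5.21% with si-NT, and both 1205Lu groups lie between 2.76 and 2.85%.

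The first comparison asked how these mRNAs changed in A375 when FRA1 was silenced. They rose nearly as a block and by a small amount. Of 79 genes tested, 76 were higher with si-FRA1, 1 was lower and 2 were not called, at an adjusted p under 0.05 in edgeR's quasi-likelihood test with no fold limit. Among all protein-coding genes tested in A375, 29.9% were called higher and 27.8% lower. The median log2 fold change (si-FRA1 over si-NT, so that positive values mean higher after silencing) was 0.26, a fold of 1.2, against 0.01 for all protein-coding genes. The middle of the distribution was narrow, with quartiles at 0.20 and 0.33. Since abundant genes are called at smaller changes, the background was also counted among genes with a mean of at least 100 CPM: 74 of 76 such ribosomal protein genes were higher and 1 lower, against 43.0 and 39.4% of all such genes. The changes were small. No gene passed an absolute log2 fold change of 1, which 5.29% of all genes did, and 43 of 79 passed 0.25 upwards and none downwards, against 20.6 and 20.7% of all genes. In 76 genes every si-FRA1 sample lay above every si-NT sample, which held for 33.2% of all genes.

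Of the 4 genes left out, RPL3L and RPL10L did not reach the count filter in any comparison, with at most 0.288 and 0.122 CPM in any sample. RPS4Y1 and RPS4Y2 are Y-linked and their levels are not given. The 76 rises ran from 0.09 (RPL18, singled out after its values were seen) to 0.49 on the log2 scale. By subunit, 31 of 32 small-subunit genes were higher in A375, with a median of 0.29, and 45 of 47 large-subunit genes, with a median of 0.23.

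**Figure D2:**
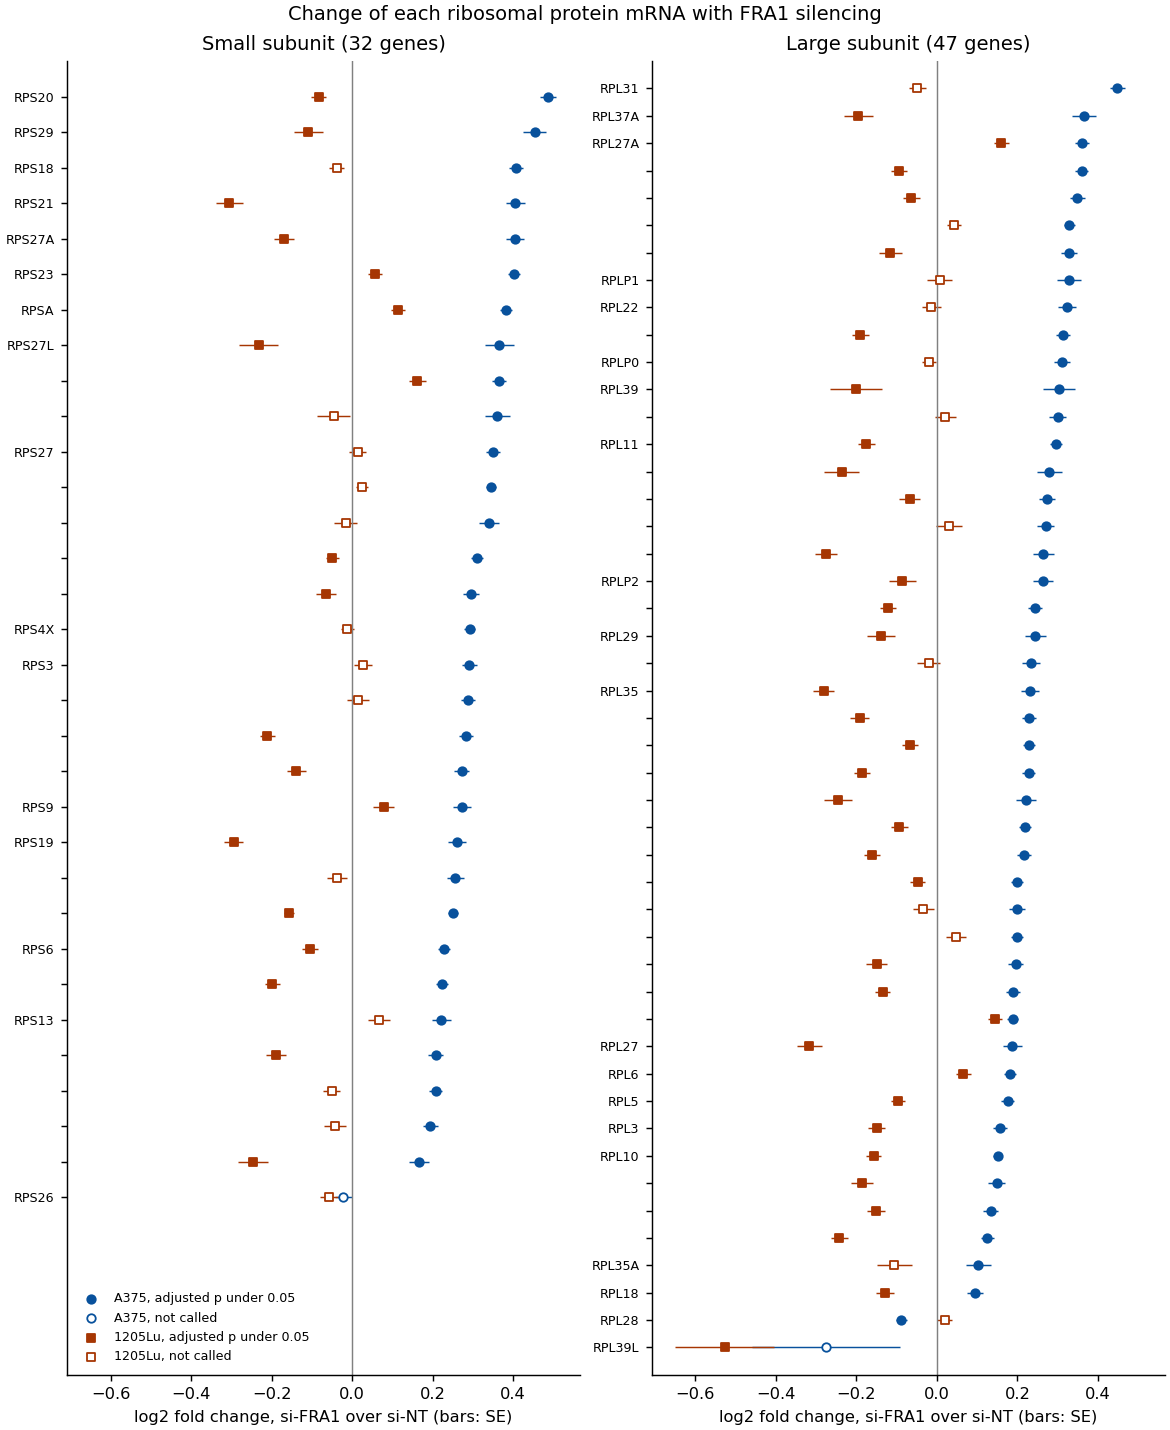
log2 fold change with FRA1 silencing (x axis, bars are the SE) for each of 79 ribosomal protein genes, split by subunit and ordered by the A375 value; circles are A375, squares 1205Lu, and open symbols did not pass an adjusted p of 0.05, and only part of the genes are labelled. The A375 values lie to the right of 0 in 76 genes, and the 1205Lu values scatter between -0.53 and 0.16.

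The largest rise in A375 was in RPS20 (ENSG00000008988.9), a protein of the head of the small subunit. RPS20 was 440.4, 435 and 451 CPM in the si-NT samples and 638, 616 and 612 CPM after silencing. Its log2 fold change was 0.49 (SE 0.0207, adjusted p = 1.43e-15), a fold of 1.4. RPS29, a zinc-binding protein of the small subunit, went from 152, 149 and 153 to 209, 200.2 and 213 CPM, with 0.45 (SE 0.0283, adjusted p = 2.12e-12) on the log2 scale. RPL31 (ENSG00000071082.11, chromosome 2, 101002229 to 101024032, plus strand) went from 411, 410.0 and 413 to 562, 561 and 566 CPM, a log2 fold change of 0.45 (SE 0.0185, adjusted p = 8.36e-16). In all 3 genes the groups lay far apart relative to the spread within them. RPS18, also of the head of the small subunit, went from 975, 995 and 1025 to 1334, 1341 and 1314 CPM (0.41, adjusted p = 8.41e-16), and RPS21 from 282, 295 and 297 to 382, 383 and 396 CPM (0.41, adjusted p = 7.86e-13).

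Genes with known special roles rose by similar amounts in A375. The P-stalk proteins RPLP0, RPLP1 and RPLP2 recruit the elongation factors to the large subunit. RPLP0 was 632, 603 and 610.4 CPM in the si-NT samples and 774, 772 and 751 CPM after silencing, a log2 fold change of 0.31. The values for RPLP1 and RPLP2 were 0.33 and 0.26. RPL5 and RPL11 bind the 5S rRNA and, outside the ribosome, MDM2. RPL5 rose by 0.18 (from 785, 786 and 790.2 to 899, 881 and 897 CPM) and RPL11 by 0.29 (from 1006, 995 and 986 to 1212, 1242 and 1224 CPM). RPS6, the substrate of the S6 kinases, rose by 0.23, and RPS3, at the mRNA entry site, by 0.29. RPS19, the gene most often mutated in Diamond-Blackfan anemia, rose by 0.26, and RPSA, also known as the laminin receptor, by 0.38. RPL3, near the peptidyl transferase center, rose by 0.16, RPL10, one of the last proteins to join the large subunit, by 0.15, RPL22 by 0.32 and the X-linked RPS4X by 0.29. The largest adjusted p among these 13 genes was 4.66e-08.

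Only 3 of the 79 tested genes did not rise in A375. RPL28 (ENSG00000108107.14, chromosome 19, 55385932 to 55403250, plus strand), a large-subunit protein, was 1788, 1821 and 1812 CPM in the si-NT samples and 1725, 1699 and 1693 CPM after silencing, so each silenced sample lay below each control. Its log2 fold change was -0.09 (SE 0.0130, adjusted p = 3.55e-06). RPS26, which lines the path of the mRNA on the small subunit and was singled out after its values were seen, was 408, 404 and 414 CPM in the si-NT samples and 409, 404 and 399 CPM after silencing, with groups that overlapped and a log2 fold change of -0.02 (SE 0.0202, adjusted p = 0.400). RPL39L, a paralog of RPL39 best known from testis, had 3.44, 3.17 and 3.77 CPM in the si-NT samples and 3.06, 2.75 and 2.75 CPM after silencing, -0.28 (SE 0.184, adjusted p = 0.225) on the log2 scale.

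The same comparison in 1205Lu gave a mixed picture that leaned the other way. Of 79 genes tested, 7 were higher with si-FRA1, 47 were lower and 25 were not called. Among all protein-coding genes tested in 1205Lu, 24.0% were called higher and 23.0% lower. The median log2 fold change was -0.09, a fold of 0.937, where that of all protein-coding genes was -0.000925. Among genes with a mean of at least 100 CPM, 7 of 76 ribosomal protein genes were higher and 44 lower, against 39.6 and 37.7% of all such genes. None rose by more than 0.25 on the log2 scale and 6 fell by more, against 15.0 and 16.2% of all genes, and none passed 1, which 2.97% of all genes did. In 43 genes every si-FRA1 sample lay below every si-NT sample, against 25.6% of all genes. The 47 called falls ran from -0.05 to -0.53. In the large subunit 32 of 47 genes were lower and 3 higher (median -0.12), and in the small subunit 15 of 32 were lower and 4 higher (median -0.05).

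The largest fall was in RPL39L, which went from 10.1, 9.84 and 9.38 to 6.97, 6.25 and 7.37 CPM, a log2 fold change of -0.53 (SE 0.122, adjusted p = 0.00153). RPL27 went from 173, 160.1 and 165 to 133, 134 and 138 CPM, -0.32 (SE 0.0315, adjusted p = 7.23e-08) on the log2 scale. RPS21, among the genes with the largest rise in A375, went from 149.8, 145 and 139.8 to 120.0, 115 and 121 CPM in 1205Lu (-0.31, SE 0.0336, adjusted p = 2.92e-07). In each of these 3 genes the groups did not overlap. RPS19 went from 247, 247 and 253 to 203, 203 and 209.6 CPM (-0.29, adjusted p = 2.80e-09), and RPL35, which sits at the exit of the peptide tunnel, from 238, 243 and 244 to 193, 203 and 207 CPM (-0.28, adjusted p = 1.84e-08).

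The 7 genes that rose in 1205Lu also rose in A375. RPL27A went from 527, 524 and 538 to 593, 592 and 611 CPM in 1205Lu (0.16, adjusted p = 3.60e-07). RPSA went from 502, 502 and 510.4 to 556, 547 and 556 CPM (0.11, SE 0.0177, adjusted p = 2.45e-05). In both genes the silenced samples were all above the controls in both lines, and in A375 RPL27A had 0.36 and RPSA 0.38. RPS9 changed less, from 178, 184 and 188 to 193, 197 and 198 CPM (0.08, SE 0.0261, adjusted p = 0.0204). Without si-NT replicate 1 the adjusted p of RPS9 was 0.088. RPL6 (0.07) and RPS23 (0.06), singled out after their values were seen, were also among the 7.

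Of the role-defined genes in 1205Lu, RPL11 fell by 0.18 on the log2 scale (from 487, 501 and 499 to 443, 456 and 432 CPM, adjusted p = 8.16e-07) and RPL5 fell by 0.10 (adjusted p = 0.000102). RPL3 and RPL10 had values of -0.15 and -0.16, both called lower, and RPS6 had -0.10, also called. RPLP0 (-0.02), RPLP1 (0.01), RPS3 (0.03), RPL22 (-0.01) and RPS4X (-0.01) were not called, with adjusted p between 0.397 and 0.883. RPLP2 was called lower at -0.09 (adjusted p = 0.0438), and its adjusted p rose above 0.05 when any of 5 of the 6 samples was left out. RPL28 had 0.02 (adjusted p = 0.439) and RPS26 -0.06 (adjusted p = 0.0505).

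Whether the change with silencing differed between the lines was tested as an interaction over all 12 samples, (si-FRA1 over si-NT in A375) minus (si-FRA1 over si-NT in 1205Lu). It was positive and called in 75 of 79 genes, negative and called in 1 (RPL28, -0.12, SE 0.0244, adjusted p = 0.000368) and not called in 3. Among all protein-coding genes 18.9% were called positive and 19.9% negative. The median difference was 0.33 on the log2 scale, with 31 of 32 small-subunit and 44 of 47 large-subunit genes called positive. RPL39L and RPS26 were among the 3 without a call. Side by side, 46 genes were called higher in A375 and lower in 1205Lu, 23 higher in A375 and not called in 1205Lu, and 7 higher in both. Among all 12663 protein-coding genes with a test in each line, 4.94% were higher in A375 and lower in 1205Lu, 13.0% higher in A375 and not called in 1205Lu, and 12.1% higher in both. The lines share no samples, and across the 79 genes their log2 fold changes had a Pearson r of 0.324 and a Spearman rho of 0.236, close to the 0.305 and 0.293 over all 12663 genes. Without RPL39L, the lowest in both lines, r was 0.144 and rho 0.207 (n = 78). Genes share library and depth within a line, so these are descriptions only.

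The largest interaction was in RPS21, 0.70 (SE 0.0412, adjusted p = 8.74e-13), a gene at 382, 383 and 396 CPM in A375 si-FRA1 and 120.0, 115 and 121 CPM in 1205Lu si-FRA1. RPS27L, a paralog of RPS27 that p53 can induce, went from 89.2, 84.7 and 85 to 116, 109.7 and 109 CPM in A375 and from 63.5, 62.5 and 70.1 to 57.5, 54.7 and 56.8 CPM in 1205Lu, an interaction of 0.59 (SE 0.0606, adjusted p = 2.36e-08). RPS27A, which is made as a fusion with ubiquitin, went from 273, 276 and 286 to 366, 372 and 372 CPM in A375 and from 234, 240.2 and 238 to 212, 209 and 220.3 CPM in 1205Lu (0.56, SE 0.0353, adjusted p = 2.62e-12). The groups of these 3 genes did not overlap in either line and moved in opposite directions. RPS20 and RPS29 followed with 0.56 and 0.55. In 1205Lu RPS20 was 438, 445 and 449.8 CPM in the si-NT samples and 417, 425 and 431 CPM after silencing (-0.08), and RPS29 was 121, 119 and 120.2 and 118, 107 and 114 CPM (-0.11).

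**Figure D3:**
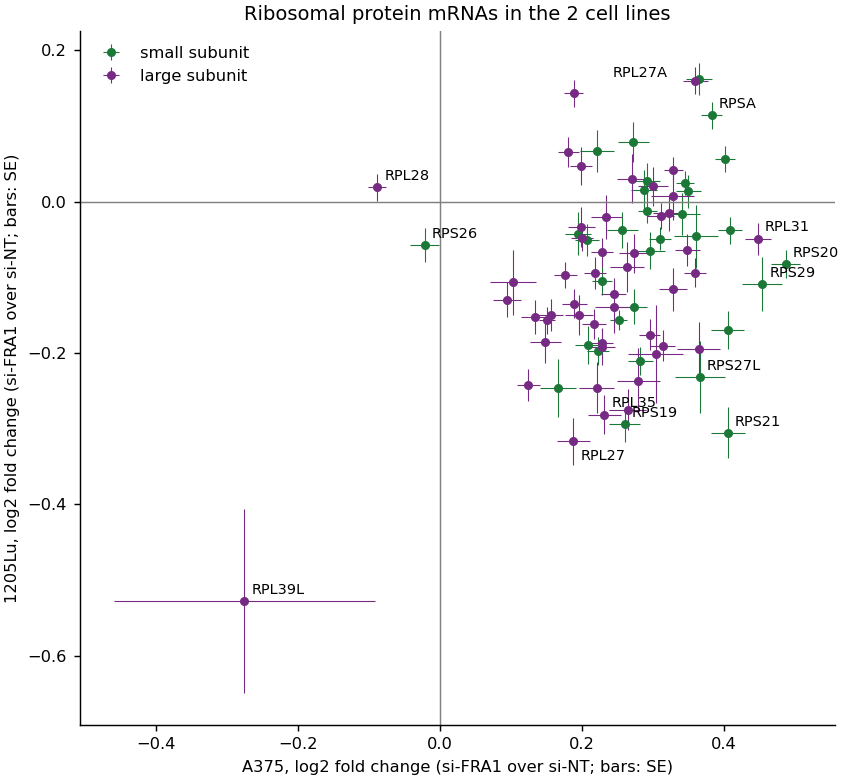
log2 fold change with FRA1 silencing in A375 (x axis) against 1205Lu (y axis) for 79 ribosomal protein genes, coloured by subunit, with SE bars. Most points lie right of 0 and below 0; RPL28, RPS26 and RPL39L lie left of 0, and RPL27A and RPSA are among those above 0.

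**Figure D4:**
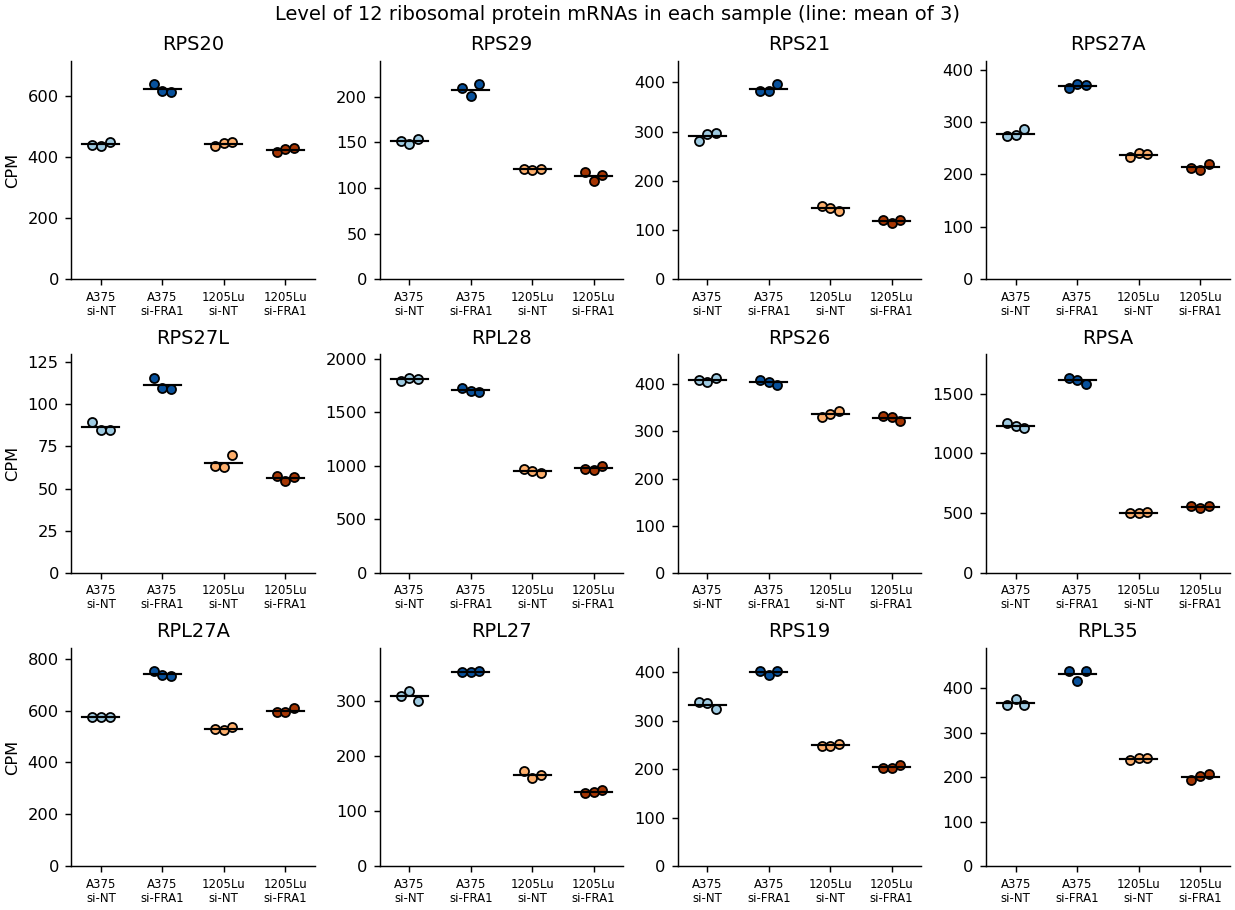
CPM (y axis, from 0) of 12 ribosomal protein genes in each of the 12 RNA-seq samples, grouped by line and siRNA; points are samples and lines the mean of 3. In RPS21, RPS27A, RPL27, RPS19 and RPL35 the silenced samples lie above the controls in A375 and below them in 1205Lu, and in RPSA and RPL27A they lie above in both.

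With the non-targeting siRNA the level of most of these mRNAs was higher in A375 than in 1205Lu. Of 79 genes tested, 71 were higher in A375 si-NT, 5 lower and 3 not called, where 42.4% of all protein-coding genes were higher and 40.4% lower. The median log2 difference (A375 over 1205Lu) was 0.75, a fold of 1.68, with 29 of 32 small-subunit and 42 of 47 large-subunit genes higher. Cell line and culture cannot be told apart in this comparison. RPL10 differed most, at 2619, 2592 and 2647 CPM in A375 and 821, 803 and 822 CPM in 1205Lu, a log2 difference of 1.61 (SE 0.0135, adjusted p = 1.79e-25). RPL29, known for binding heparin, was 268, 271 and 269 against 108, 110.3 and 105 CPM (1.25). The lines did not overlap in either gene. The X-linked genes RPL10, RPL36A, RPL39 and RPS4X were all higher in A375, with a median of 1.08.

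In the other direction, RPL39L was 3.44, 3.17 and 3.77 CPM in A375 and 10.1, 9.84 and 9.38 CPM in 1205Lu (-1.57, SE 0.139, adjusted p = 3.33e-09). RPL37A was 327, 318 and 319 against 409, 395 and 374 CPM (-0.36, SE 0.0277, adjusted p = 3.20e-10). RPL35A (-0.14), RPS13 (-0.09) and RPS20 (-0.08) were lower by little, and the groups of these 3 overlapped in CPM scaled over all 12 samples. With all samples in 1 fit only 2 genes were lower, and the median log2 difference was 0.82.

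To compare levels between genes, CPM was divided by the length of the canonical transcript in GENCODE v44. Among the most abundant per kb in A375 si-NT were RPS27, at 1894 ± 16.5 CPM per kb (SD, n = 3), and RPS18, at 1819 ± 45.2. In 1205Lu si-NT they were at 932 ± 17.5 and 1015 ± 8.44 CPM per kb. Leaving out RPL3L, RPL10L and RPL39L, the other 78 genes had a median of 546 CPM per kb in A375 si-NT, with quartiles at 355 and 969.9, and of 337 in 1205Lu si-NT, with quartiles at 215 and 525. The lowest of them, RPS27L, at 14.1 and 10.7 CPM per kb, has a canonical transcript of 6110 bases, and those of RPL14 (7136 bases) and RPL37 (7573 bases) are as long, so values per kb depend on which transcript the cells use, which was not tested.

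**Figure D5:**
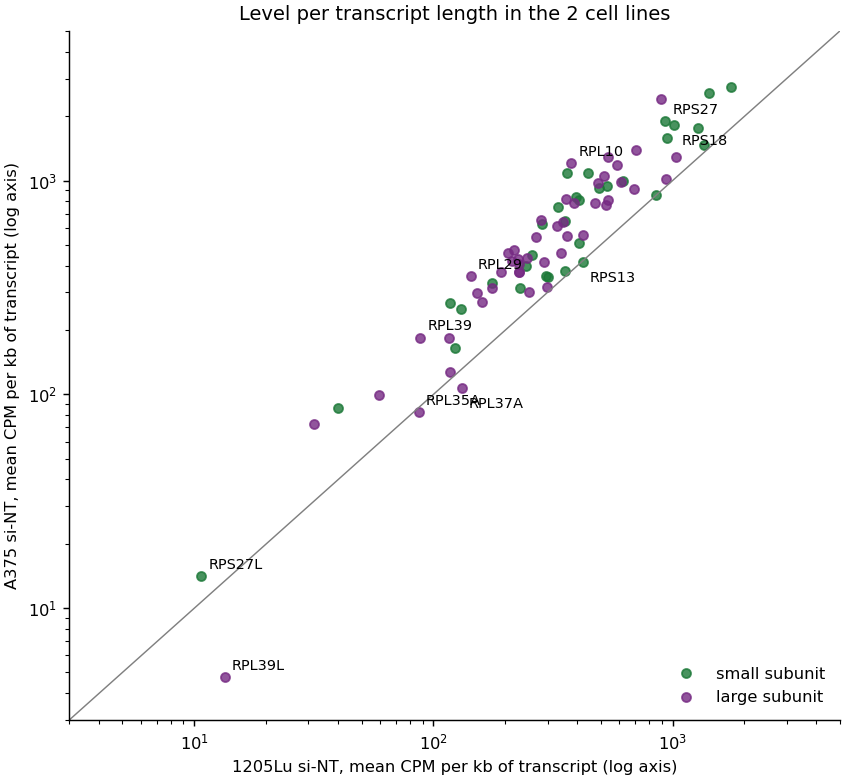
Mean CPM per kb of canonical transcript with si-NT in 1205Lu (x axis) against A375 (y axis), both log axes, for 79 ribosomal protein genes by subunit; the line marks equal levels. 74 of the genes lay above the line and 5 below it, and RPL39L lies furthest below the line.

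The tissue-restricted paralogs were far below their partners. RPL39 was 184 CPM per kb in A375 si-NT and 88 in 1205Lu si-NT, and RPL39L 4.74 and 13.4. RPL39 moved with the majority, from 71.2, 73.2 and 71.5 to 86.4, 87.2 and 93.9 CPM in A375 (0.30) and from 37.3, 32.7 and 32.9 to 28.8, 29.7 and 32.4 CPM in 1205Lu (-0.20, adjusted p = 0.0169, above 0.05 without si-NT replicate 1 or si-FRA1 replicate 1 or 2). RPL3L, of heart and skeletal muscle, and RPL10L, of testis, were near 0 in every sample. RPS27 rose by 0.35 in A375 and had 0.01 in 1205Lu (adjusted p = 0.664), where RPS27L fell by 0.23 (adjusted p = 0.000558). The difference between the pair was not tested.

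Ribosomal protein genes have many processed pseudogenes, and 76 of the 83 had at least 1 pseudogene row in the table, 1133 rows in all. Near-identical copies can share reads. The pseudogenes held a median of 0.128% of the summed parent and pseudogene counts, and over 5% for 7 genes: RPL9 (35.3%), RPL23A (17.7%), RPL22 (16.5%), RPS27A (15.1%), RPS2 (12%), RPSA (7%) and RPL14 (5.26%). The levels of these 7 are therefore uncertain. With the counts summed, 76 genes were higher and 1 lower in A375, 7 higher and 50 lower in 1205Lu, and RPL22 in 1205Lu became called lower at -0.08.

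Genes outside the rule that belong to the same process were counted from lists. Of 6 ribosomal proteins outside the naming rule, 3 were higher and 2 lower in A375, and none was higher and 4 lower in 1205Lu. FAU, made as a fusion with a ubiquitin-like protein, had 0.21 in A375 and -0.27 in 1205Lu, and RPL36AL 0.22 and -0.19, all called. RPL7L1, a nucleolar paralog of RPL7, fell in both, with -0.75 and -0.30. RPL22L1 had -0.15 in A375 (adjusted p = 0.0138) and 0.12 in 1205Lu, not called, and RPL26L1 was not called in either. Of 14 other genes with TOP mRNAs, 11 were higher and 3 lower in A375 (median 0.20), and 6 were higher and 4 lower in 1205Lu (median 0.04). The shares of all protein-coding genes, against which each list is read, were 29.9% higher and 27.8% lower in A375 and 24.0% and 23.0% in 1205Lu. Elongation factor EEF1A1 had 0.42 in A375 and -0.07 in 1205Lu, whereas PABPC1, the poly(A)-binding protein, had -0.46 and 0.19, all called. Of 78 mitochondrial ribosomal protein genes, which serve the organelle's own ribosome, 37 were higher and 10 lower in A375 (median 0.13), and 17 higher and 20 lower in 1205Lu (median -0.00147). The 1205Lu counts of this list lay near the 24.0% and 23.0% of all genes.

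Of 12 regulators of TOP mRNAs and of ribosomal protein synthesis (LARP1, MTOR, RPTOR, AKT1S1, TSC1, TSC2, RHEB, RPS6KB1, RPS6KB2, EIF4EBP1, EIF4EBP2 and MYC), 2 were higher and 8 lower in A375 (median -0.35), and 5 higher and 4 lower in 1205Lu (median -0.00305), beside 29.9% higher and 27.8% lower of all genes in A375 and 24.0% and 23.0% in 1205Lu. LARP1, which binds the TOP tract, was 675, 685 and 676 CPM in the si-NT samples and 355, 358 and 358 CPM after silencing in A375, a log2 fold change of -0.93 (SE 0.0184, adjusted p = 1.02e-21). In 1205Lu it was 474, 467 and 466 and 347, 351 and 355 CPM (-0.44, SE 0.0187, adjusted p = 2.29e-13). It was thus lower in both lines, with an interaction of -0.51 (adjusted p = 9.46e-14). EIF4EBP2, an inhibitor of cap-dependent translation downstream of mTORC1, had -1.48 in A375 and -0.95 in 1205Lu, and EIF4EBP1 -0.45 and -0.76, all called. MYC, a transcription factor that activates ribosome synthesis, was 36.1, 36.6 and 37.6 CPM in the si-NT samples and 19.8, 21.7 and 18.7 CPM after silencing in A375 (-0.88), and 123, 118 and 119 and 138, 152 and 141 CPM in 1205Lu (0.24). MYC therefore moved against the ribosomal protein majority in both lines, with an interaction of -1.13 (SE 0.0673, adjusted p = 9.81e-13). MTOR itself was not called in A375 (-0.02) and was 0.10 in 1205Lu (adjusted p = 0.0189). The part of these regulators in the ribosomal protein values was not tested.

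Cut&Run asked where FRA1 sat near these genes. The deposited table holds read counts in 54563 consensus peaks on GRCh38. A gene was counted when a peak within 3 kb of one of its starts passed a count limit. The limit was 10 or more counts in all 3 FRA1 libraries, each of them 4 or more times what the IgG library had plus 1. Starts of all annotated transcripts in GENCODE v44 were used, so a counted peak can lie away from the main start. In A375, 35 of 79 ribosomal protein genes (44.3%) had such a peak, against 35.0% of all protein-coding genes tested. In 1205Lu the number was 1 of 79 (1.27%), against 4.87%. The lines cannot be set against each other here, because counts in peaks were 3354095 to 5316527 per A375 FRA1 sample and 583750 to 897407 per 1205Lu FRA1 sample. The 1205Lu shares are what was detectable at that depth.

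The A375 count depended on scale. FRA1 samples held 8.73 to 13.8 times as many counts in peaks as the A375 IgG sample, and the median peak near a ribosomal protein gene had 5.18 times the IgG count plus 1, against 5.15 near all tested genes and 6.20 over all peaks. At 8 times IgG, 5 of 79 genes (6.33%) passed, against 15.1% of all genes, and with every library scaled to the same total in peaks, none of the 79 passed and 0.442% of all genes did. The totals in peaks are themselves a measure of enrichment, so the scaled count is not a corrected one. The peak with the highest ratio lay near RPS16, at chr19:39429988-39432961, with 357, 563 and 456 counts in the FRA1 samples and 16 with IgG. RPS16 lies on the minus strand at chr19:39433137-39435949, so this peak lay past its 3′ end. The peak was 800 bases from the nearest annotated transcript start, and the RefSeq start window of RPS16 was at chr19:39435935-39435961. A peak over a start of RPL27 at chr17:42997787-42998922 had 94, 145 and 116 counts and 8 with IgG. One over an annotated internal start of RPS4X at chrX:72272820-72274208 had 69, 90 and 84 counts and 4 with IgG. The RefSeq start window of RPS4X, on the minus strand, was at chrX:72277234-72277260, outside this peak. The peak at RPS21, chr20:62386624-62387126, had 82, 111 and 70 counts against 11 with IgG in A375, and 19, 12 and 12 against 12 in 1205Lu. No consensus peak lay within 3 kb of RPS20 or RPL28. The 1 gene that passed in 1205Lu was RPL39, at chrX:119791424-119792161, with 20, 27 and 19 counts and 3 with IgG. It passed in A375 too, with 90, 139 and 99 counts and 20 with IgG.

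The letters TGACTCA or TGAGTCA occurred somewhere in 23 of the 90 peaks near ribosomal protein genes (25.6%), in 41.8% of peaks near all tested genes and in 57.7% of all peaks. Within 100 bases of the peak centre they occurred in 8 of 90 (8.89%), 17.6% and 28.5%. The median widths of these peaks were 814.5, 757 and 715 bases. Side by side with expression, the 35 genes with an A375 peak past the IgG limit had a median log2 fold change of 0.26 with silencing, and the 44 without one 0.25.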

How the data were processed

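RNA-seq was analysed in 12 samples of the melanoma lines A375 and 1205Lu (3 per group) and Cut&Run in 8. The expected counts per gene were deposited by the authors: their methods and submitters' notes name cutadapt 1.8.1, STAR 2.7.7a, RSEM 1.3.0, GRCh38, the Gencode v30 annotation and a strand-specific kit. The expected counts were rounded to whole numbers. For Cut&Run the authors deposited counts of reads per sample in consensus peaks, made with Bowtie2 2.4.1 and MACS2 2.1.1.20160309.

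Each comparison was fitted over all genes passing filterByExpr with TMM factors in edgeR 4.0.16 (quasi-likelihood test, Benjamini-Hochberg over all genes tested, called at an adjusted p under 0.05). Printed CPM use TMM over all 12 samples. Background percentages are over protein-coding genes tested. DESeq2 1.42.0, upper-quartile scaling, TMM factors without the ribosomal protein genes, other count filters, all 12 samples in 1 fit, summed pseudogene counts, a replicate block and leaving out each replicate were alternatives. The script was tested on simulated data.

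Total counts were 20573412 to 32518903 per RNA-seq sample, with a biological coefficient of variation of 4.51% in A375 and 4.20% in 1205Lu, so that changes below 0.1 on the log2 scale could be called in abundant genes. Lengths came from GENCODE v44 and start sequences from RefSeq (GRCh38.p14). Of the FRA1 Cut&Run samples of 1205Lu, replicates 2 and 3 differed little beyond counting error (a chi-square of 1.06 for each degree of freedom). The other 1205Lu pairs had 1.62 and 1.90. The A375 pairs had 1.25, 1.09 and 1.13, so those samples also differed little beyond counting error. Each count is therefore given on its own.

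The genes and lists were chosen with earlier results of these data known. Named genes were the 5 called genes with the largest changes in each direction and line and the 5 largest interactions, the 4 largest differences between lines in each direction (in these comparisons of changes and levels, at a mean of at least 100 counts), members fixed by role, paralog pairs, and the 3 most and least abundant per kb. RPS26, RPL6, RPL18 and RPS23 were added after their values were seen. Levels of Y-linked genes and the values of some other genes that these rules name are not reported here; all tested genes but the Y-linked enter the counts.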

Additional observations from a re-analysis of the deposited data

Results flagged for a closer look

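The change with FRA1 silencing differed between the lines in the interaction test: it was more positive in A375 in 75 of 79 genes and more negative in 1, with a median difference of 0.33 on the log2 scale. The largest differences were in RPS21 (0.70), RPS27L (0.59), RPS27A (0.56), RPS20 (0.56) and RPS29 (0.55). The gene with the opposite sign was RPL28 (-0.12).

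The share of the library in the 83 genes moved in opposite directions in every silenced sample of the lines, by 0.893 percentage points in A375 and by -0.0727 in 1205Lu. The difference between these shifts was not tested.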

How the results depend on the processing

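In A375 the counts were 76 higher and 1 lower under DESeq2, every scaling and filter tried, and each left-out sample (76 to 76 and 1 to 1), and the median stayed between 0.25 and 0.275 when a sample was left out. With a log2 limit of 1 the counts were 0 and 0, and with 0.25 they were 43 and 0, as fewer genes can pass. In 1205Lu the limits left 0 higher and 0 lower at 1, and 0 and 6 at 0.25. There, 11 genes were higher with all 12 samples in 1 fit, and leaving out a sample gave 7 to 9 higher, 40 to 45 lower and a median of -0.0946 to -0.0697. The interaction median was 0.378 with upper-quartile scaling. Between the lines, the genes lower in A375 numbered 3 with upper-quartile scaling, 2 with no count filter and 2 with all 12 samples in 1 fit (3 to 5 without 1 sample), and the medians were 0.788, 0.873 and 0.821 (0.750 to 0.791). The cause of these shifts was not tested. The replicate block gave 76 and 1 genes in A375, 7 and 47 in 1205Lu, 75 and 1 in the interaction and 69 and 5 between the lines. Same-numbered samples correlated at 0.132, 0.0486 and 0.00137 in A375 and at 0.0749, 0.0509 and -0.0855 in 1205Lu. Differently numbered samples ran from -0.115 to 0.0709 in A375 and from -0.101 to 0.0534 in 1205Lu. Such weak values cannot show whether same-numbered samples shared a culture or batch.

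Genes near 0 changed sign in 1205Lu: RPL22 (0.00425 with no filter, 0.00249 in 1 fit, -0.0268 to 0.00223 without 1 sample), RPS4X (0.00713, 0.00524 and -0.0100 to 0.00307) and RPLP1 (-0.00478 with at least 10 counts in every sample, -0.0229 to 0.0469 without 1 sample). RPS13 was 0.0380 between the lines with no filter. Of 504 named-gene values in A375, 504 kept direction and call. In 1205Lu 456 of 504 did, 26 lost the call, 13 gained it and 9 changed sign. The calls lost included those of RPLP2, RPS29, RPL39 and RPS9.

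FRA1 peaks were found at 54 genes in A375 (68.4%, against 53.7% of all genes) and 7 in 1205Lu (8.86%, against 13.2%) at 2 times IgG. At 8 times they were at 5 and 0 (15.1% and 1.23% of all genes), with scaled libraries at 0 and 0 (0.442% and 2.12%), and without 1 sample at 35 to 45 in A375. With 1 IgG sample per line the error of these counts could not be estimated, and 1205Lu depth limits what could be detected.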
